A study of Gallus gallus with 12 samples.

Results

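RGS proteins, the regulators of G-protein signalling, are described here through 9 genes measured in ovarian follicles of the laying hen (Gallus gallus): RGS2, RGS3, RGS4, RGS5, RGS10, RGS14, RGS16, RGS18 and RGS19. They were chosen by gene symbol from a list of 10 that was drawn up with the difference between the follicle stages already known. RGS12, the other gene on that list, was not analysed here. The 9 genes stood among 12470 named genes, and all 9 were among the 11195 genes that passed the low-count filter. Because measured values of the comparison between stages led to this choice, the values of these 9 genes between stages are given as a description. Where calls of the test across all genes are counted for them, the counts support nothing.

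Messenger RNA was sequenced from ovarian follicles of 6 hens aged 12 months. Each hen gave 1 library of the F5 stage, a place in the ranked set of large yolky follicles that ovulate in turn, and 1 library of the Pre-recruitment stage, before a follicle joins that set. The 12 libraries thus form 6 pairs, named by the numbers of the birds. The labels name no treatment, strain or genotype, and do not say which layers of the follicle were taken. Levels are given as CPM (counts relative to library size) after scaling of the libraries by the trimmed mean of M values (TMM), and a log2 change is that of F5 over Pre-recruitment follicles. CPM values are not divided by transcript length, so levels are compared between stages and hens and not between genes.

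A hormone receptor of the G-protein-coupled type switches on a G protein by loading its alpha subunit with GTP, and an RGS protein shortens the signal by speeding up the hydrolysis of that GTP. In mammals most RGS proteins act on alpha subunits of the Gi and Gq classes. The receptors of the gonadotropins signal chiefly through another class, Gs. RGS2, RGS3, RGS4, RGS5, RGS16 and RGS18 belong to the R4 subfamily of mostly small proteins, RGS10 and RGS14 to the R12 subfamily and RGS19 to the RZ subfamily.

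Named genes received between 28044247 and 40887647 counts in F5 libraries and between 20628640 and 29082988 in Pre-recruitment libraries. The label of follicle tissue was checked against markers of its cells. Granulosa, theca and endothelial markers were present in every library. The summed CPM of 12 granulosa markers was 1389 to 1974 in F5 libraries, against 2453 to 3113 in Pre-recruitment libraries. Much of that difference is AMH, which averaged 30.4 CPM in F5 follicles and 691 CPM in Pre-recruitment follicles. Of the 12 markers 8 were lower and 2 higher in F5 follicles, among the latter HSD3B1 (424 CPM in F5 and 146 CPM in Pre-recruitment follicles). In bulk tissue, fewer cells of a type and less RNA per cell cannot be told apart. Of all 11195 genes, 65.5% passed edgeR's quasi-likelihood test between stages at a Benjamini-Hochberg adjusted p under 0.05. In F5 follicles 32.9% of all genes passed as higher and 32.6% as lower. That fit had stage as its only term and did not use the pairs. With the bird as a block 7711 genes passed in place of 7333. TMM scaling sets the typical gene near no change (median log2 change 0.02), whereas library totals alone put it at -0.21, so directions are relative to the typical gene.

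RGS16 was 45.0-fold lower in F5 follicles, while the other 8 genes differed by less than 2-fold between stages. Over all tested genes, 4.73% were at least 2-fold higher and 9.92% at least 2-fold lower in F5 follicles. Of the 9 genes, 5 were higher in F5 follicles in 6 of 6 birds (RGS2, RGS10, RGS14, RGS18 and RGS19), and 3 were lower in 6 of 6 birds (RGS3, RGS5 and RGS16). RGS4 was higher in 3 birds and lower in 3. Of all tested genes, 30.3% were higher and 31.8% lower in 6 of 6 birds, 62.1% in all. The 8 genes with 1 sign in every bird also passed edgeR's test, beside the background of 65.5%, and nothing is read from that count because the comparison led to the choice of the genes. Under library totals 4 were called (RGS3, RGS5, RGS14 and RGS16). With 1 bird left out, 6 to 8 were called. RGS3 was not called without bird 5802, 5817, 5835 or 5840 (log2 change -0.34 to -0.40), RGS18 without bird 5835 (0.44), and RGS19 without bird 5826 (0.46) or 5840 (0.52). These fits did not use the pairs. With the bird as a block and all birds kept, RGS3 was called (log2 change -0.39). No fit with the block left out a bird. The median log2 change of the 9 genes was 0.39, against 0.02 for all tested genes.

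**Figure D1:**
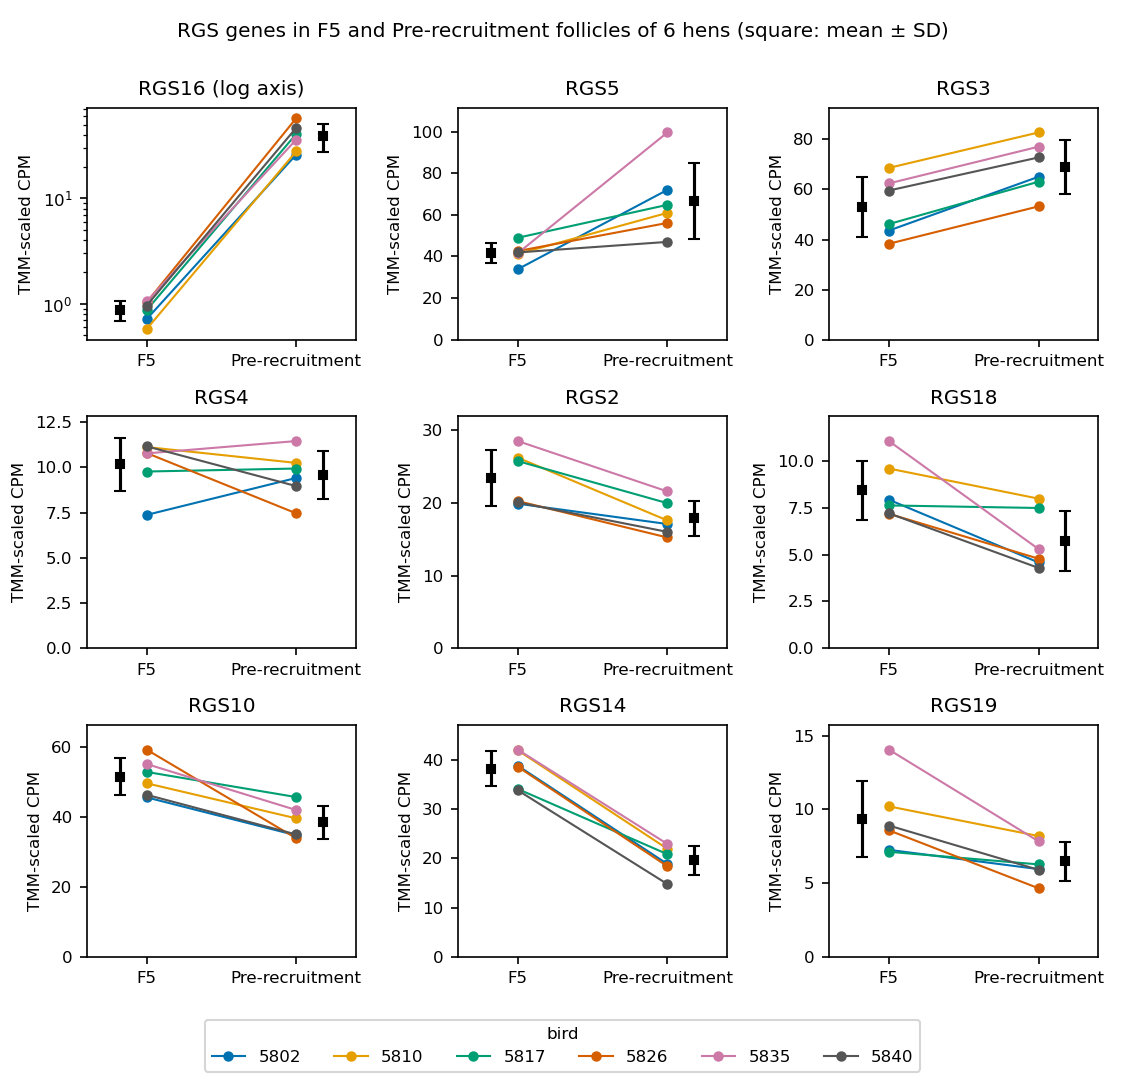
TMM-scaled CPM of 9 RGS genes in the F5 and Pre-recruitment follicle of each of 6 hens, with a line joining the follicles of 1 hen and squares with bars giving mean ± SD (n = 6). RGS16 is on a log axis, and its levels are 0.575 to 1.05 CPM in F5 follicles and 26.1 to 57.9 CPM in Pre-recruitment follicles. RGS14 lies higher in every F5 follicle than in any Pre-recruitment follicle, and the lines of RGS4 cross.

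RGS16, which in mammals acts on Gi and Gq alpha subunits, had a lowest, median and highest level of 0.575, 0.916 and 1.05 CPM in F5 follicles, against 26.1, 38.6 and 57.9 CPM in Pre-recruitment follicles. Every F5 library was thus far below every Pre-recruitment library. Its counts were 17 to 39 per F5 library and 724 to 1754 per Pre-recruitment library. The fitted log2 change was -5.49 (SE 0.23), and within hens the difference ran from 34.5-fold to 56.1-fold. Only 0.0268% of tested genes had a lower log2 change. In F5 follicles the coefficient of variation between hens was 21.8%, close to the 20.2% that counting error alone gives at these counts, so the depth could not show differences between hens there. Before recruitment it was 30.4%, against 3.10% from counting.

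Oocyte and granulosa markers are given beside RGS16. Of 13 tested oocyte markers 10 were lower in F5 follicles, beside 32.6% of all genes, and 3 did not pass the test. The median log2 change of the 13 was -2.12. Their summed level was 483 to 1439 CPM in F5 libraries and 966 to 1214 CPM in Pre-recruitment libraries. That sum is mostly ZP3, which encodes a protein of the egg coat. ZP3 averaged 815 CPM in F5 and 587 CPM in Pre-recruitment follicles, and whether its RNA came from the oocyte was not tested. The sum therefore does not describe the 10 lower markers. Among these, ZP2 averaged 11.9 CPM in F5 and 196 CPM in Pre-recruitment follicles, and BMP15 averaged 2.18 and 23.6 CPM. Of 12 granulosa markers 8 were lower and 2 higher, with a median log2 change of -0.94. None of these markers was at 0 in all libraries. Their part in the level of RGS16 was not tested.

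The genes with the most similar pattern to RGS16 were SNX22, SLC22A31 and BTC, out of 9491 genes whose log2 CPM averaged 2 or more. Likeness was the root mean square difference over the 12 libraries between log2 CPM profiles centred on each gene's mean, and it was 0.53, 0.57 and 0.57 in that order. SNX22, a sorting nexin, averaged 1.71 ± 0.507 CPM in F5 follicles and 40.2 ± 14.5 CPM in Pre-recruitment follicles (SD, n = 6 each). BTC, which encodes the growth factor betacellulin, averaged 1.61 ± 0.705 CPM in F5 follicles and 38.2 ± 9.61 CPM in Pre-recruitment follicles. SLC22A31, a solute carrier, averaged 1.33 ± 0.383 CPM in F5 follicles and 29.8 ± 8.78 CPM in Pre-recruitment follicles. They were 22.4-fold to 23.6-fold lower in F5 follicles. A large fall was built into their choice, since the difference between stages dominates the profile of RGS16, and nothing is read from it.

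RGS5, known in mammals as a marker of pericytes and vascular smooth muscle, was lower in F5 follicles. Its lowest, median and highest levels were 33.9, 41.8 and 49.0 CPM in F5 follicles, against 47.0, 62.9 and 99.7 CPM in Pre-recruitment follicles. The groups overlapped, since the Pre-recruitment library of bird 5840 (47.0 CPM) lay below the F5 library of bird 5817 (49.0 CPM). The fitted log2 change was -0.68 (SE 0.15), and the difference within hens ran from 1.1-fold in bird 5840 to 2.40-fold in bird 5835. The coefficient of variation between hens was 11.5% in F5 follicles and 27.2% in Pre-recruitment follicles. Counting error gives 2.88% in F5 follicles and 2.36% in Pre-recruitment follicles. Without the Pre-recruitment library of bird 5835, the highest, the log2 change was -0.55.

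Markers of smooth muscle, pericytes and endothelium are given beside RGS5. The smooth muscle list was not limited to muscle of vessels. Of 14 smooth muscle markers, 13 were higher in F5 follicles, beside 32.9% of all genes, and 1 did not pass the test. The summed level of the 14 was 17412 to 34211 CPM in F5 libraries and 4602 to 10131 CPM in Pre-recruitment libraries. Of 5 pericyte markers, 2 were higher and 1 was lower. Their sum was 417 to 511 CPM in F5 libraries and 378 to 501 CPM in Pre-recruitment libraries. Of 10 endothelial markers, 5 were higher and 2 lower. The sum was 817 to 905 CPM in F5 libraries and 737 to 856 CPM in Pre-recruitment libraries. None of the markers on these 3 lists was at 0, and their part in the level of RGS5 was not tested.

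RGS3, whose longer forms in mammals also carry domains outside the RGS fold, was lower in F5 follicles by a smaller margin. It measured 38.3, 52.9 and 68.6 CPM (lowest, median and highest) in F5 follicles, against 53.3, 68.9 and 82.8 CPM in Pre-recruitment follicles. The groups overlapped widely, but within each hen the F5 follicle had less, by 1.21-fold to 1.49-fold. The fitted log2 change was -0.38 (SE 0.14).

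RGS4, a short-lived regulator of Gi and Gq in mammals, spanned much the same range in both stages. Levels were 7.37, 10.8 and 11.2 CPM (lowest, median and highest) in F5 follicles and 7.46, 9.68 and 11.5 CPM in Pre-recruitment follicles. The log2 change of 0.09 (SE 0.12) turned to -0.15 under library totals, so no direction is given for RGS4. Within hens it ran from -0.35 in bird 5802 to 0.53 in bird 5826.

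RGS14 had the highest log2 change of the 9 genes. It belongs to the R12 subfamily and, in mammals, also holds a GoLoco motif that binds the inactive form of Gi alpha subunits. Levels were 33.9, 38.7 and 42.1 CPM (lowest, median and highest) in F5 follicles, against 14.8, 19.9 and 22.9 CPM in Pre-recruitment follicles. No F5 library overlapped with a Pre-recruitment library, which among the 9 genes also held for RGS16 and no other. Over all tested genes every F5 library was above every Pre-recruitment library for 20.7% and below for 22.8%, 43.5% in all. The log2 change was 0.96 (SE 0.10), and each hen had between 1.64-fold and 2.29-fold more in its F5 follicle. Under library totals the log2 change was 0.73.

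RGS10, the small R12 member that mammalian immune cells and brain express strongly, measured 45.5, 51.1 and 59.1 CPM (lowest, median and highest) in F5 follicles, against 33.8, 37.2 and 45.6 CPM in Pre-recruitment follicles. The groups overlapped only at the Pre-recruitment library of bird 5817 (45.6 CPM) and the F5 library of bird 5802 (45.5 CPM). The log2 change was 0.42 (SE 0.09). RGS2, which in mammals is selective for Gq, measured 19.9, 23.0 and 28.5 CPM in F5 follicles, against 15.2, 17.3 and 21.6 CPM in Pre-recruitment follicles. It was higher in each hen's F5 follicle by 1.16-fold to 1.49-fold (log2 change 0.39, SE 0.12), although the groups overlapped.

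RGS18 and RGS19 were also higher in the F5 follicle of every hen, with a wide spread between hens. RGS18, an R4 member of mammalian platelets and other blood cells, measured 7.18, 7.78 and 11.1 CPM (lowest, median and highest) in F5 follicles, against 4.29, 5.04 and 7.99 CPM in Pre-recruitment follicles. In bird 5817 the follicles hardly differed (1.02-fold), and in bird 5835 the F5 follicle had 2.09-fold more. RGS19, also called GAIP, an RZ member that acts on Gi and Gz in mammals, measured 7.13, 8.75 and 14.1 CPM in F5 follicles, against 4.65, 6.11 and 8.20 CPM in Pre-recruitment follicles. The top F5 value of both genes came from bird 5835. The log2 changes were 0.56 (SE 0.18) for RGS18 and 0.53 (SE 0.18) for RGS19. Without the F5 library of bird 5835 they were 0.46 for RGS18 and 0.38 for RGS19. Under library totals the log2 change was 0.16 for RGS2, 0.19 for RGS10, 0.33 for RGS18 and 0.30 for RGS19.

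Blood cell markers are given beside RGS10 and RGS18. Of 15 tested leukocyte markers, 0 passed edgeR's test (2 at an unadjusted p under 0.05), beside 65.5% of all genes. Of these markers 1 passed by DESeq2, 2 under library totals and 4 with the bird as a block in edgeR. Their summed level was 670 to 1065 CPM in F5 libraries and 602 to 1199 CPM in Pre-recruitment libraries. Of 8 tested thrombocyte markers (thrombocytes are the avian counterpart of platelets), 4 were higher and 1 was lower, beside 32.9% and 32.6% of all genes. The median log2 change of the 8 was 0.53. Their sum was 257 to 1150 CPM in F5 libraries and 178 to 951 CPM in Pre-recruitment libraries and consisted mostly of F13A1, which macrophages also express. GP9, a platelet surface glycoprotein, averaged 0.594 CPM in F5 follicles and 0.211 CPM in Pre-recruitment follicles. The part of these cells in the RGS values was not tested.

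**Figure D2:**
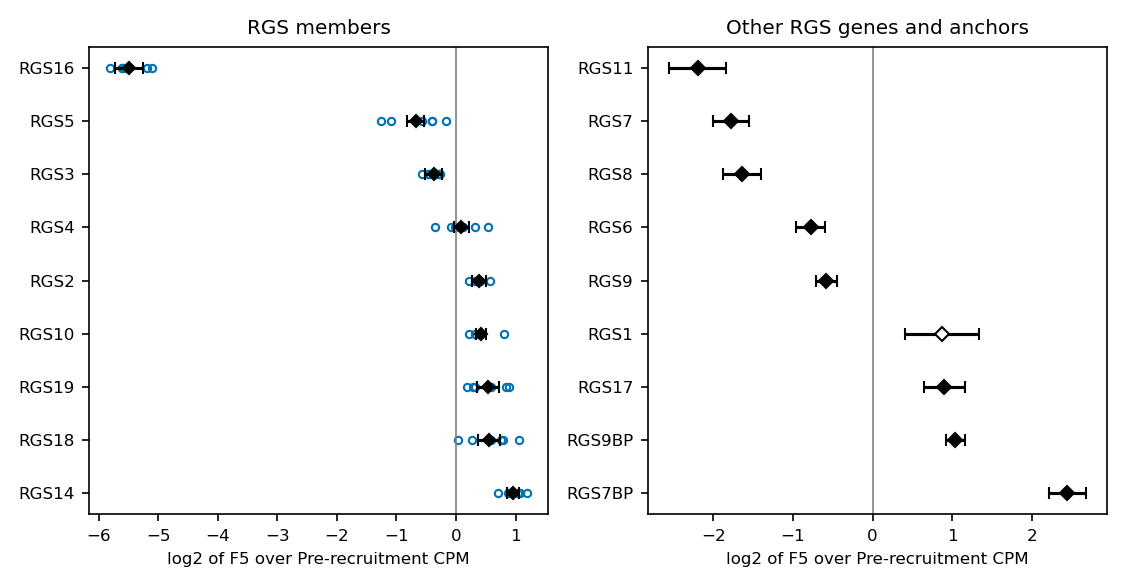
Log2 of F5 over Pre-recruitment CPM. Left, the 9 RGS genes of the list, with open circles for the 6 hens and diamonds with bars for the fitted value ± SE. RGS16 lies alone near -5.49. Right, other RGS genes and anchor proteins with the fitted value ± SE, filled where the edgeR adjusted p was under 0.05. The R7 genes RGS6, RGS7, RGS9 and RGS11 lie on the lower side and the anchors RGS7BP and RGS9BP on the higher side.

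The other RGS genes come from a list of the whole family, whatever their direction, and were tested. This list, like the other lists, was drawn up with earlier results of these data known. In mammals the R7 subfamily (RGS6, RGS7, RGS9 and RGS11) forms stable pairs with the G-protein beta subunit GNB5 and is held at membranes by the anchors RGS7BP and RGS9BP. All 4 R7 genes fell in F5 follicles, whereas both anchors rose. GNB5 fell as well, but it was named for 1 of the 4 smallest adjusted p of the beta and gamma list. RGS11 measured 1.29, 2.69 and 3.88 CPM (lowest, median and highest) in F5 follicles, against 5.18, 10.9 and 24.4 CPM in Pre-recruitment follicles, a 4.57-fold fall (log2 change -2.19, SE 0.36, edgeR adjusted p = 1.18e-04). RGS7 measured 0.485, 0.996 and 1.18 CPM in F5 follicles, against 2.57, 3.02 and 4.58 CPM in Pre-recruitment follicles, a 3.43-fold fall. RGS6 fell 1.71-fold and RGS9 1.5-fold. Groups did not overlap for any of these 4 genes, and each was lower in 6 of 6 birds, beside 22.8% of all genes that were lower without overlap and 31.8% that were lower in 6 of 6 birds. The F5 counts were low for RGS7, from 18 per library.

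GNB5 averaged 59.8 ± 3.26 CPM in F5 follicles and 95.3 ± 18.6 CPM in Pre-recruitment follicles (SD, n = 6 each), a 1.6-fold fall (edgeR adjusted p = 1.07e-04). RGS7BP measured 21.4, 29.5 and 43.3 CPM (lowest, median and highest) in F5 follicles, against 2.80, 5.30 and 8.58 CPM in Pre-recruitment follicles. That is a 5.44-fold rise (log2 change 2.44, SE 0.24, edgeR adjusted p = 9.96e-07). RGS9BP rose 2.05-fold, to 14.8 ± 0.449 CPM in F5 follicles against 7.18 ± 1.29 CPM in Pre-recruitment follicles (SD, n = 6 each). Both anchors were higher in 6 of 6 birds, as were 30.3% of all genes. For both, every F5 library was above every Pre-recruitment library, as for 20.7% of all genes. The calls of the anchors, the R7 genes and GNB5 held under each alternative scaling, filter and test, with the bird as a block and without each bird.

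Counts were low for the other R4 and RZ genes. RGS8 measured 0.405, 0.526 and 0.677 CPM in F5 follicles, against 1.23, 1.59 and 2.51 CPM in Pre-recruitment follicles. That is a 3.11-fold fall (edgeR adjusted p = 3.22e-05), from counts of 11 or more per library in F5 follicles. It was lower in 6 of 6 birds, as were 31.8% of all genes. RGS17, an RZ gene, rose 1.87-fold (adjusted p = 0.00754 by edgeR), higher in 5 of 6 birds. RGS1, an R4 gene of mammalian lymphocytes, averaged 1.4 ± 0.949 CPM in F5 follicles and 0.763 ± 0.575 CPM in Pre-recruitment follicles (SD, n = 6 each). It was higher in 6 of 6 birds, as were 30.3% of all genes, and its edgeR adjusted p was 0.114. A fit that blocks by bird gave 0.00187, and leaving out bird 5810 gave 0.0182, a bird whose libraries held the highest RGS1 of both stages. RGS13, RGS20 and RGS21 had at most 17 counts in any library and did not pass the low-count filter.

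Several RGS genes are neighbours on a chromosome. The RefSeq annotation of another chicken build (GRCg7b) was used here only for gene order and gene spans. In it, RGS4, RGS2, RGS13, RGS1, RGS21, RGS18 and RGS5 follow each other with 0 protein-coding genes between neighbours. Along this row the log2 change was 0.09 for RGS4, 0.39 for RGS2, 0.87 for RGS1, 0.56 for RGS18 and -0.68 for RGS5. RGS8 and RGS16 are neighbours farther along the same chromosome, with 64 protein-coding genes between RGS5 and RGS8, and both were lower in F5 follicles (-1.64 for RGS8 and -5.49 for RGS16). The annotated span of RGS4 encloses the 5 genes RGS1, RGS2, RGS13, RGS18 and RGS21. Counts of genes whose transcripts overlap are uncertain where reads match both. Only starts and ends of genes were compared, so whether their transcripts overlap, or reads were shared between them, was not measured.

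Proteins that carry an RGS-like domain within another protein were mixed. On the list of other RGS and RGS-domain genes, of 17 tested genes 5 were higher in F5 follicles, 7 lower and 5 short of the threshold (70.6% called, against 65.5% of all genes; median log2 change -0.04, against 0.02). SNX14, a sorting nexin, fell 1.4-fold (edgeR adjusted p = 4.49e-06) and AXIN2, a WNT feedback scaffold, fell 1.57-fold (adjusted p = 0.00198). AXIN1 rose 1.18-fold (0.0258) and SNX25 rose 1.13-fold (0.0261). SNX13, AKAP10, ARHGEF11 and ARHGEF12 had log2 changes of -0.08 to 0.03, with adjusted p from 0.41 to 0.85. Without bird 5826 only 3 genes rose. AXIN1 missed the threshold without bird 5810 (adjusted p = 0.0727), 5826 (0.11), 5835 (0.0539) or 5840 (0.068), and SNX25 without bird 5802 (0.0694), 5810 (0.11), 5817 (0.0844) or 5826 (0.0886) and with the bird as a block (0.055). Under library totals 3 genes rose and 11 fell, AXIN1 gave an adjusted p of 0.946, SNX25 turned to -0.059, and ARHGEF11, ARHGEF12, AKAP10 and SNX13 passed as lower (adjusted p from 0.00346 to 0.0234).

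Of 11 tested alpha subunits of all classes, 7 rose, 3 fell and 1 did not pass, and under library totals 4 rose and 3 fell. The share called was 90.9%, against 65.5% of all genes, of which 32.9% were higher, and the median log2 change was 0.39, against 0.02 for all genes. GNAQ, the Gq subunit itself, measured 82.1, 97.4 and 113 CPM (lowest, median and highest) in F5 follicles, against 29.3, 38.9 and 45.5 CPM in Pre-recruitment follicles. That is a 2.49-fold rise (log2 change 1.32, SE 0.11, edgeR adjusted p = 2.13e-07). GNA11, the other widely expressed member of the Gq class, rose 1.31-fold to 163 ± 7.31 CPM in F5 follicles against 125 ± 8.93 CPM in Pre-recruitment follicles (SD, n = 6 each).

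In the Gi class, GNAI1 rose 1.72-fold to 141 ± 21.0 CPM in F5 follicles against 82.2 ± 12.0 CPM in Pre-recruitment follicles, and GNAI2 rose 1.49-fold (SD, n = 6 each). GNAI3 fell 1.10-fold. GNAO1, the alpha subunit of Go, rose 1.33-fold in 5 of 6 birds, and GNAZ, the subunit of Gz, rose 1.45-fold. GNAS, the stimulatory subunit that carries the gonadotropin signal, fell 1.21-fold to 69.4 ± 2.40 CPM in F5 follicles against 84.0 ± 5.75 CPM in Pre-recruitment follicles. GNA12 fell 1.91-fold and GNA13, of the same class, rose 1.13-fold. GNAL, a relative of GNAS, had a log2 change of 0.09 (edgeR adjusted p = 0.537).

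The calls of 4 alpha subunits were lost with any of several birds left out, with the sign kept. Without bird 5826 only 4 alpha subunits rose. In the fits without a bird that lost the call, the log2 change was -0.12 to -0.14 for GNAI3 (-0.14 with all birds), 0.28 to 0.40 for GNAO1 (0.42), 0.43 to 0.55 for GNAZ (0.54) and 0.12 to 0.19 for GNA13 (0.17). GNAI3 (edgeR adjusted p = 0.0259) missed the threshold without bird 5802 (0.101), 5817 (0.0595) or 5835 (0.0606). GNAO1 (0.0237) missed it without bird 5826 (0.132), 5835 (0.0963) or 5840 (0.0671), with the bird as a block (0.0539) and under library totals (0.263). GNAZ (0.03) missed it without bird 5810 (0.0956), 5817 (0.0891) or 5826 (0.0611) and under library totals (0.237). GNA13 (0.0417) missed it without bird 5802 (0.0998), 5810 (0.0511), 5817 (0.146), 5826 (0.115) or 5840 (0.0533) and with DESeq2 size factors (0.0502), and under library totals it turned to -0.061.

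**Figure D3:**
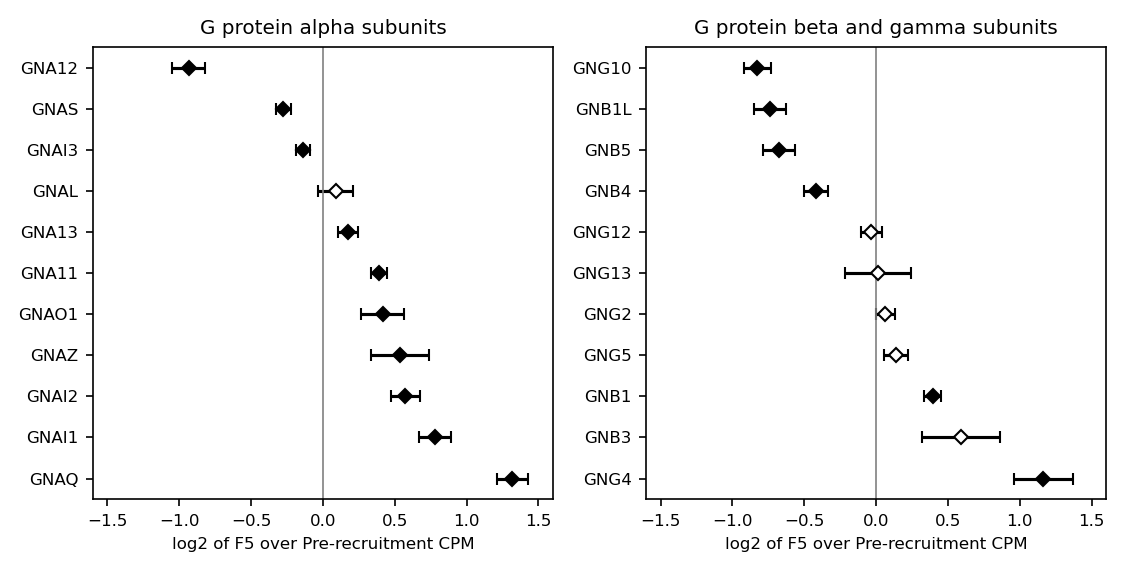
Fitted log2 of F5 over Pre-recruitment CPM ± SE for G-protein alpha subunits (left) and for beta and gamma subunits (right), n = 6 follicles per stage. Diamonds are filled where the edgeR adjusted p was under 0.05. GNAQ has the highest value on the left at 1.32 and GNA12 the lowest at -0.94.

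Beta and gamma subunits, the partners of the alpha subunit in a G protein, went both ways. Of 11 tested, 2 rose and 4 fell (54.5% called, against 65.5% of all genes, median log2 change 0.01). GNB1, the common beta subunit, rose 1.31-fold to 710 ± 27.9 CPM in F5 follicles against 540 ± 34.1 CPM in Pre-recruitment follicles (SD, n = 6 each). The gamma subunit GNG10 fell 1.78-fold and GNB1L, a beta-like protein, fell 1.67-fold, each in 6 of 6 birds. GNB1, GNG10, GNB1L and GNB5 had the smallest adjusted p of this list, so nothing is read from these counts of birds.

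Receptor kinases and arrestins end signalling at the receptor rather than at the alpha subunit. The arrestin genes ARRB1 and ARRB2 were on the list but were not analysed here. The 15 tested genes were receptor kinases, arrestin-related ARRDC genes and alpha-subunit modulators. Of them 4 rose and 4 fell (53.3% called, against 65.5% of all genes, median log2 change 0.07). RIC8B, a chaperone and exchange factor for alpha subunits, rose 1.71-fold to 55.4 ± 3.43 CPM in F5 follicles against 32.3 ± 2.31 CPM in Pre-recruitment follicles (SD, n = 6 each; edgeR adjusted p = 2.23e-07). The receptor kinase GRK5 rose 2.07-fold. The arrestin-related genes ARRDC4 and ARRDC1 fell 2.81-fold and 1.68-fold. These 4 genes were named for the smallest adjusted p of their list. All moved the same way in 6 of 6 birds, as did 62.1% of all tested genes, and nothing is read from that.

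On the list of Gq effectors, 9 of 20 tested genes rose and 4 fell (65.0% called, median log2 change 0.22). Of all genes 65.5% were called, 32.9% higher and 32.6% lower. PLCB4, a phospholipase C that Gq activates, rose 2.45-fold to 18.3 ± 2.49 CPM in F5 follicles against 7.47 ± 0.806 CPM in Pre-recruitment follicles (SD, n = 6 each; edgeR adjusted p = 2.53e-07). Diacylglycerol kinases remove the lipid messenger that phospholipase C makes. DGKQ fell 10.8-fold, to 8.09 ± 3.38 CPM in F5 follicles against 87.4 ± 27.3 CPM in Pre-recruitment follicles (adjusted p = 3.69e-07 by edgeR), and DGKZ fell 1.87-fold. These kinases went both ways. DGKD also fell (log2 change -0.69), while DGKH and DGKB rose (0.53 and 0.47, edgeR adjusted p = 0.0447 and 0.0491). DGKE and DGKG did not pass (0.15 and 0.27), nor did the phospholipase C genes PLCB1 and PLCB2 (-0.10 and 0.40). The atypical protein kinase C gene PRKCZ fell 1.93-fold. PLCB4, DGKQ, DGKZ and PRKCZ were named for the smallest adjusted p of their list. The count of 9 risers dropped to 4 without bird 5817, to 5 without bird 5826 and to 2 under library totals, while 4 genes fell in each of the fits without a bird.

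On the list of receptors taken to couple to Gi or Gq, 19 of 47 tested genes rose and 9 fell. The coupling itself was not tested. The share called was 59.6%, against 65.5% of all genes, and the median log2 change was 0.29. Under library totals 12 rose and 17 fell. LPAR1, a receptor for lysophosphatidic acid, rose 1.78-fold to 54.8 ± 4.01 CPM in F5 follicles against 30.8 ± 1.78 CPM in Pre-recruitment follicles (SD, n = 6 each; edgeR adjusted p = 1.25e-07). The protease-activated receptors F2RL1 and F2R rose 3.17-fold and 2.40-fold. PTGER3, a prostaglandin E receptor that couples to Gi, fell 3.43-fold to 2.03 ± 0.441 CPM in F5 follicles against 7.0 ± 1.41 CPM in Pre-recruitment follicles. The 4 receptors were named for the smallest adjusted p of their list. Each moved the same way in 6 of 6 birds, as did 62.1% of all tested genes, and nothing is read from that.

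Agreement between the follicles of a hen is a comparison that the choice of genes did not use. For each gene, log2 CPM in the F5 follicle was set against log2 CPM in the Pre-recruitment follicle of the same hen, with exact two-sided permutation tests over the 720 pairings of 6 birds. RGS3 gave Pearson's r = 0.97 (exact permutation p = 0.00278) and Spearman's rank correlation = 0.94 (exact permutation p = 0.0167). Bird 5810 had the most RGS3 and bird 5826 the least at both stages. Without these birds, which lay farthest from the median before recruitment, r was 0.95. RGS2 gave r = 0.87 (exact permutation p = 0.0194) and a rank correlation of 0.71 (exact permutation p = 0.136), and r was 0.64 without birds 5817 and 5835. With any 1 bird left out, the exact permutation p of r was 0.00833 to 0.0167 for RGS3 and 0.05 to 0.2 for RGS2.

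Neither gene passed Benjamini-Hochberg adjustment over all 11195 genes, with adjusted exact permutation p = 0.43 for RGS3 and 0.438 for RGS2. Of all tested genes 0 passed that adjustment, the smallest p that 720 pairings allow being 0.00139, and 9.85% had an unadjusted p under 0.05, beside 2 of the 9 RGS genes. The median r over all genes was 0.31, and 0.447% of genes had an r at least as high as that of RGS3. RGS16 gave r = 0.79 (exact permutation p = 0.0722). Its F5 values rest on 17 to 39 counts per library, with a spread between hens close to counting error, so no agreement is read from that r. RGS5 gave r = -0.18 (exact permutation p = 0.733). The other 5 genes had r between -0.01 and 0.68, with unadjusted exact permutation p from 0.144 to 0.982.

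**Figure D4:**
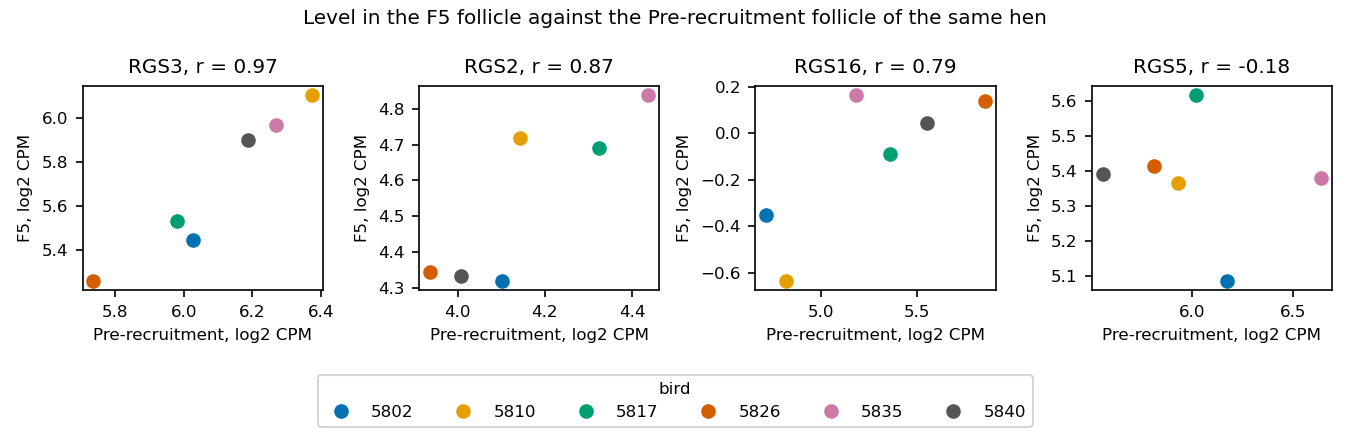
Log2 CPM in the F5 follicle (vertical) against log2 CPM in the Pre-recruitment follicle (horizontal) of the same hen for RGS3, RGS2, RGS16 and RGS5, with 1 point per hen and Pearson's r above each panel. The points of RGS3 lie near a line (r = 0.97), and those of RGS5 do not (r = -0.18). The F5 values of RGS16 rest on 17 to 39 counts per library.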

How the data were processed

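The values are expected counts, estimated by kallisto 0.44.0 and deposited by the authors without normalisation, 1 row per gene symbol. The tool is named in the labels and in the submitters' processing notes. These notes also list bcl2fastq 2.19, DESeq2 1.38.3, DESeq 0.99.484 and the builds GRCg6a and galGal6. Poly-A RNA was sequenced as paired reads of 100 bp, per the labels' protocols. The sources used here do not state how transcripts were summed to genes or whether counting used strand. All values were whole numbers, so rounding changed 0 values. A row with a blank name, 6.24% to 9.79% of counts per library, was left out.

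Counts were fitted with edgeR 4.0.16 in R 4.3.3 (filterByExpr by stage with a minimum count of 10, TMM factors of 0.859 to 0.968 in F5 and 1.03 to 1.14 in Pre-recruitment libraries, robust quasi-likelihood fits with stage as the only term). Tests were two-sided, adjusted over all 11195 genes at 0.05. The standard error is the log2 change divided by the square root of F. Log2 CPM uses a prior count of 2. Alternatives were library totals, DESeq2 size factors, no filter, DESeq2 1.42.0, the bird as a block and leaving out each bird, and, added after the data were seen and for the 9 RGS genes only, each library. The code was tested on simulated data.

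The genes, lists and markers were chosen with earlier results of these data known. Named pathway genes are all tested alpha subunits and RGS-list genes and, from every other list, the 4 with the smallest adjusted p. The other tested diacylglycerol kinases and phospholipase C genes are given beside these and are not counted among them. Genes similar to a member were sought for members with at least a 2-fold change. Agreement between the follicles of a bird was adjusted over all genes instead of over the members as first planned.

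Libraries of 1 stage differed beyond sampling noise (smallest chi-square per degree of freedom 23.5). The labels' bird numbers pair the libraries by animal. Across genes, deviations from the stage means correlated at 0.13 to 0.39 for follicles of 1 bird, against -0.30 to 0.30 for different birds. These genes are not independent.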

Additional observations from a re-analysis of the deposited data

Results flagged for a closer look

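In groups of 6 libraries a value was picked out where its gap to the nearest other library exceeded 0.625 of the range of the group, which chance alone does in about 1 group in 20. Of 106 groups checked, 4 were picked out. RGS4 was lowest, at 7.37 CPM, in the F5 library of bird 5802, against 9.77 to 11.2 CPM in the other F5 libraries. RGS1 was highest, at 1.91 CPM, in the Pre-recruitment library of bird 5810, against 0.429 to 0.726 CPM in the others. ARHGEF11 was highest, at 102 CPM, in the F5 library of bird 5826, against 87.6 to 93.1 CPM in the others, and lowest, at 73.2 CPM, in the Pre-recruitment library of bird 5840, against 91.6 to 96.9 CPM.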

How the results depend on the processing

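Library totals in place of TMM moved the most values. The median log2 change of all genes was then -0.21 in place of 0.02, and 2071 genes rose in place of 3681. Under library totals 3 genes rose and 11 fell among other RGS and RGS-domain genes, 4 alpha subunits, 2 receptor kinases and modulators and 2 Gq effectors rose, and 12 receptors rose and 17 fell. Of the 9 RGS members 4 were then called in place of 8, and RGS2, RGS3, RGS10 and RGS14 moved by more than the SD between birds without a change of sign. The log2 change reversed to -0.059 for SNX25, -0.061 for GNA13, -0.195 for ARHGEF11, -0.154 for GNAL and -0.15 for RGS4. Leaving out each bird in turn gave 6 to 8 calls among the 9 RGS members, 3 to 4 risers among other RGS genes, 4 to 6 among alpha subunits and 4 to 10 among Gq effectors. Of 44 named pathway genes, 32 kept their call and sign under each scaling, filter, test, block and bird left out. Leaving out single libraries was run for the 9 RGS members only. The bird as a block ended the calls of SNX25 and GNAO1, gave RGS1 one, and changed no other call among the named pathway genes and RGS members. Under the block 4 leukocyte markers passed in place of 0. RGS16 counts in F5 follicles, 17 to 39 per library, limit what can be said about hens at that stage.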
